A study of Mus musculus with 32 samples.

Results

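The effect of deleting *Gpr146*, which encodes a G protein-coupled receptor, was compared gene by gene between liver and epididymal white adipose tissue (eWAT), using 16 of the 32 arrays of the series. The knockout effect was taken within each tissue as the mean log2 value of *Gpr146*-/- mice minus that of *Gpr146*+/+ mice, and the 2 effects were then subtracted, liver minus eWAT. Each of the 4 groups (*Gpr146*+/+ liver, *Gpr146*-/- liver, *Gpr146*+/+ eWAT, *Gpr146*-/- eWAT) held 4 male mice, 1 array per mouse and tissue. All mice were 20 weeks old, on a C57BL/6J background, had been fed a high-fat diet (HFD) for 3 months and were fasted overnight before collection. The knockout was whole-body, so both tissues lacked the receptor in all of their cells, and the wild-type controls were littermates from heterozygous parents. Of 24646 genes measured in both tissues, 1095 moved the same way and 278 moved in opposite ways.

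Liver and fat handle the same lipids with different roles. Hepatocytes make cholesterol, fatty acids and bile acids and export lipid as lipoproteins, whereas white adipocytes store triglyceride in a large droplet and release it during a fast. SREBP-2 is the transcription factor that switches on cholesterol synthesis and LDL uptake when cell sterols are low, PPARγ drives adipocyte lipid storage, and PPARα drives fatty acid oxidation in the fasted liver. Obese visceral fat also fills with macrophages, including lipid-laden cells that express *Trem2*, *Gpnmb* and *Spp1*.

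*Gpr146* itself read 6.17, 6.32, 6.21 and 6.19 log2 in wild-type livers and 4.50, 4.26, 4.63 and 4.41 in knockout livers. In eWAT it read 5.32, 5.84, 5.53 and 6.05 in wild-type and 4.63, 3.63, 4.04 and 4.33 in knockout mice. It was therefore low on every array labelled knockout, including the 4 liver arrays whose titles name both genotypes. Its effect was -1.77 in liver (SE 0.09, adjusted p = 6.55e-06) and -1.53 in eWAT (SE 0.22, adjusted p = 0.00823), and the difference between tissues was -0.24 (SE 0.25, adjusted p = 0.651). Marker genes, each on its own table's scale, matched the labelled tissues, since the 8 hepatocyte markers averaged 11 to 11.2 in liver and 2.57 to 2.84 in eWAT, and the 8 adipocyte markers 3.01 to 3.31 in liver and 8.17 to 9.25 in eWAT. Markers of epididymis, muscle and pancreas averaged at most 3.1 in any group. The highest single marker reached a group mean of 5.71 for muscle (knockout eWAT) and 4.38 for pancreas (wild-type eWAT), above the eWAT median of 3.15. Knockout mouse 2 stood apart. In its eWAT the 8 macrophage markers averaged 8.21, against 6.21 to 6.88 in the other knockout mice and 8.54 to 8.71 in wild type, and in its liver they averaged 4.92, against 4.00 to 4.23 and 4.75 to 5.29.

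The knockout changed far more genes in eWAT than in liver. With an adjusted p below 0.05, 163 genes were called in liver (0.661% of those tested: 40 higher, 0.162%, and 123 lower, 0.499%) and 3758 in eWAT (15.2%: 1126 higher, 4.57%, and 2632 lower, 10.7%). The difference between the effects passed the same threshold for 2103 genes (8.53%). For 1369 of these (5.55%) the liver effect lay above the eWAT effect, and for 734 (2.98%) below it. For most of the 2103 the change was detected in eWAT only. An unadjusted p below 0.05 was found in eWAT and not in liver for 1590 (1130 lower and 460 higher in knockout eWAT). It was found in liver and not in eWAT for 142, in both with opposite signs for 278 and in both with the same sign for 93. Of the 2103, 653 lay below the median of the liver table, where liver could show little. Under quantile normalization within each tissue 2135 genes differed, but the share with the liver effect above fell from 65.1% to 50.4%, so the excess of that direction depends on the scaling. The number that differed was 3684 without the eWAT array of knockout mouse 2 and 1374 without that of wild-type mouse 2. Of the 3684, 2393 had the liver effect above the eWAT effect and 1291 below it. List counts given below without the eWAT array of knockout mouse 2 stand against these larger numbers.

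A gene was called same-way where the average of the 2 effects had an adjusted p below 0.05 (4223 genes, 17.1%) and both tissues, fitted apart, gave the same sign with an unadjusted p below 0.05. It was called opposite where the difference had an adjusted p below 0.05 and both tissues gave unadjusted p below 0.05 with opposite signs. Same-way genes numbered 1095 (4.44%), with 309 higher (1.25%) and 786 lower (3.19%) in both knockout tissues. Opposite genes numbered 278 (1.13%), with 131 higher in liver and lower in eWAT (0.532%) and 147 lower in liver and higher in eWAT (0.596%). Under quantile normalization the same-way genes split into 494 higher and 492 lower, so the excess of falls also depends on the scaling. A stricter rule, an adjusted p below 0.05 in each tissue on its own, left 36 same-way and 16 opposite genes. The 4 knockout values lay wholly on 1 side of the 4 wild-type values for 1918 genes in liver (7.78%) and 5329 in eWAT (21.6%), on the same side in both tissues for 461 (1.87%) and on opposite sides for 119 (0.483%). Effects in the 2 tissues had a Pearson correlation of 0.242 across the 24646 genes, which are not independent, and the median effect was close to 0 in both (0.01 in liver, 0.03 in eWAT).

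**Figure D1:**
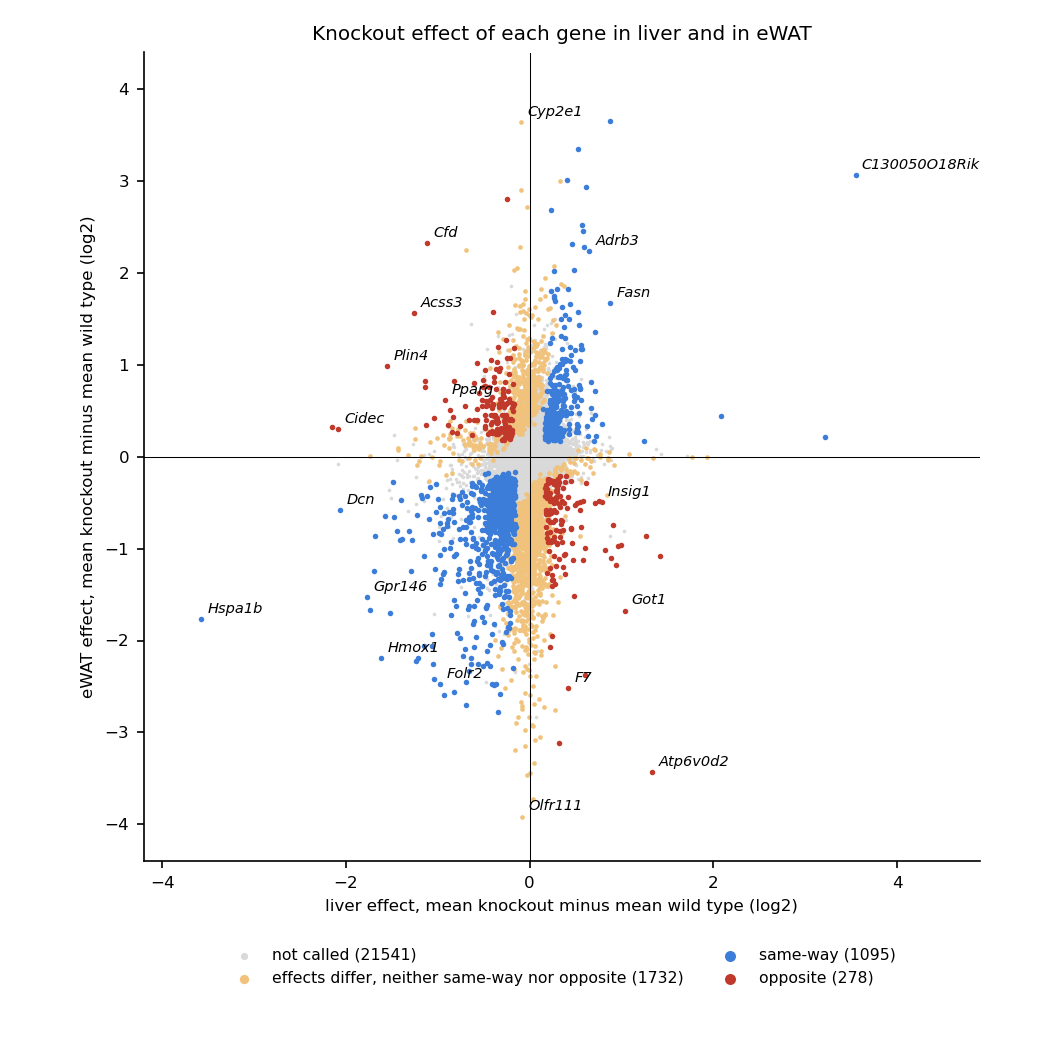
Each point is a gene, plotted by its knockout effect in liver (x axis, log2) and in eWAT (y axis, log2), and coloured as same-way (1095 genes), opposite (278), different in size without being either, or not called. The same-way genes fill the lower left and upper right corners and the opposite genes the other two, with the cloud longer along the eWAT axis than along the liver axis.

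Genes of cholesterol synthesis and uptake moved in opposite ways. Of its 22 members, 8 were higher in knockout liver and lower in knockout eWAT and none the other way (all genes, 0.532% and 0.596%), and the 2 effects differed for 12, each with liver above eWAT (all genes, 5.55%). The median effect was 0.71 in liver and -0.48 in eWAT on the log2 scale, with a median difference of 1.16 against -0.01 over all genes. The other members also leaned this way. Of the 22, 16 had a positive liver effect with a negative eWAT effect (all genes, 4539 of 24646) and 6 were positive in both (all genes, 8543). *Pmvk*, a mevalonate pathway kinase (0.63 and 0.33), and *Fdft1*, squalene synthase (0.50 and 0.64), were higher in both tissues.

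*Dhcr7*, which catalyses the last step to cholesterol, read 5.90, 5.58, 5.50 and 6.19 in wild-type livers and 7.02, 6.21, 5.84 and 6.52 in knockout livers. In eWAT it read 5.33, 5.37, 5.39 and 5.33 in wild-type and 4.46, 4.73, 4.09 and 4.17 in knockout mice. The eWAT groups were separate, whereas in liver wild-type mouse 4 and mouse 1 lay above knockout mouse 3. The liver effect was 0.60 (SE 0.23, 1.52-fold higher, adjusted p = 0.277), the eWAT effect -1.0 (SE 0.13, adjusted p = 0.00763), and the difference 1.60 (SE 0.29, adjusted p = 0.0049).

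*Insig1*, the SREBP target that retains SREBP in the endoplasmic reticulum, had effects of opposite sign too. It read 9.12, 8.46, 8.47 and 8.89 in wild-type and 9.64, 9.47, 9.52 and 9.45 in knockout livers, and 8.52, 8.73, 8.30 and 8.05 against 7.99, 8.27, 7.56 and 7.79 in eWAT. The liver groups were separate, while in eWAT wild-type mouse 4 lay below knockout mouse 2 (difference 1.28, SE 0.24, adjusted p = 0.00604). *Hmgcs1*, which makes HMG-CoA, read 7.77, 7.46, 7.39 and 8.44 in wild-type and 9.16, 8.52, 7.79 and 9.14 in knockout livers. In eWAT the same gene read 8.01, 8.87, 8.45 and 8.55 and 7.56, 7.39, 7.02 and 7.48. Its eWAT groups were separate and its liver groups overlapped, with wild-type mouse 4 above knockout mouse 3, and the effects of 0.89 and -1.10 differed by 1.99 (SE 0.40, adjusted p = 0.00735).

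Other opposite members were the pathway enzymes *Lss* (liver effect 0.71, eWAT effect -0.50, adjusted p of the difference 0.0352), *Idi1* (0.76 and -0.48, 0.0453) and *Fdps* (0.91 and -0.74, 0.0494). *Cyp51*, *Nsdhl* and *Hsd17b7*, which act later in the pathway, also differed between tissues but did not pass the test in both. *Sqle*, the squalene oxidase, had the same signs (0.87 and -0.86) without passing the test of the difference (SE 0.60, adjusted p = 0.0864), and its liver values ranged widely, from 4.60 to 6.58 in wild type and 5.35 to 7.19 in knockout. In liver alone 2 of the 22 rose past the adjusted threshold (all genes, 0.162%), *Insig1* among them (adjusted p = 0.0345). In eWAT alone 9 fell past it (all genes, 10.7%). Counted again, 6 of the list were opposite with quantile normalization and 8 without the eWAT array of knockout mouse 2.

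**Figure D2:**
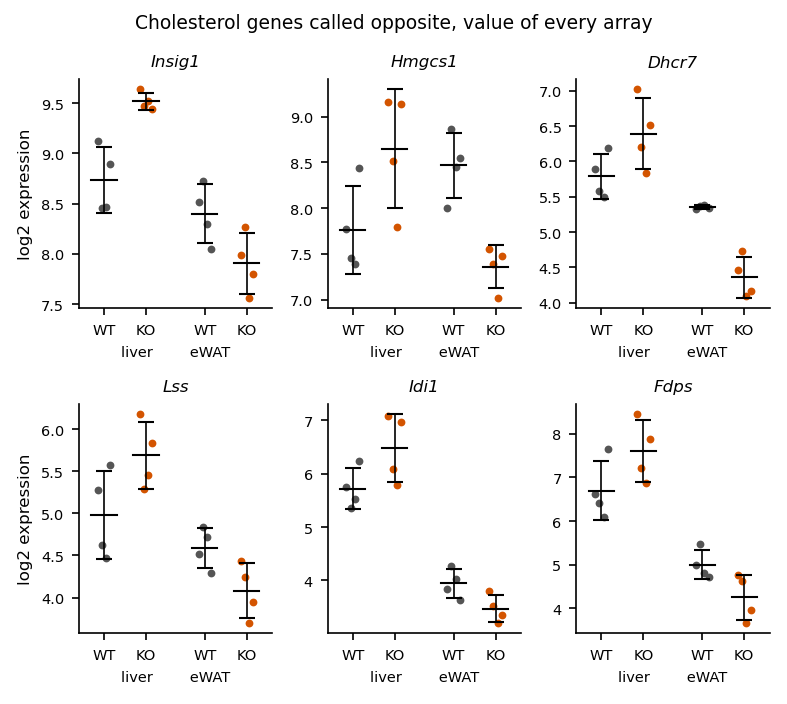
Log2 values of 6 cholesterol genes on each array, by tissue and genotype, with a point per mouse, a wide bar at the group mean and whiskers of 1 SD (n = 4). Tissues were scaled apart, so genotypes are compared within a tissue. All 6 genes have a higher mean in knockout than in wild-type liver and a lower mean in knockout than in wild-type eWAT, as for *Insig1* (8.73 and 9.52 in liver, 8.40 and 7.90 in eWAT).

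The 250 bases upstream of the RefSeq start (build GRCm38.p6) are shown for 2 of these genes, *Hmgcs1* (chr13:119690101-119690350, plus strand) and *Insig1* (chr5:28071162-28071411, plus strand). Both windows hold CCAAT, and the sterol regulatory element searched for lies in that of *Hmgcs1* only. Capitals mark every match, on either strand, to CCAAT (the box bound by NF-Y), TCACCCCA (a sterol regulatory element), CACGTG (an E-box), GAANNTTC (the heat shock element core) or AGGTCA (a nuclear receptor half-site).
Hmgcs1: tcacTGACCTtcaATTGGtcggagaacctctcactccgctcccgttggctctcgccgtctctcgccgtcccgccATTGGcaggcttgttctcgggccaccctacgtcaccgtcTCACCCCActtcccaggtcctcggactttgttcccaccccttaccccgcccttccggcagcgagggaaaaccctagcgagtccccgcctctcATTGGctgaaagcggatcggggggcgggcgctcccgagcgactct
Insig1: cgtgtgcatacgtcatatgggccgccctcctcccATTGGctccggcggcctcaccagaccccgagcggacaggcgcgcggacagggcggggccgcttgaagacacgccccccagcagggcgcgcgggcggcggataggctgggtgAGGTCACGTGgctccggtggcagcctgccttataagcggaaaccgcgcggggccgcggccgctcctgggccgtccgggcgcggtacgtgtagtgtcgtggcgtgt
The *Hmgcs1* window held 3 CCAAT boxes, 1 TCACCCCA and 1 AGGTCA, and in the *Insig1* window, besides 1 CCAAT box, CACGTG overlapped AGGTCA. A promoter was listed for 14 of the 22 genes, and CCAAT was found in 14 of the 14, against 37.5% of all 27025 promoters of that length. TCACCCCA was found in 2 of the 14 (*Hmgcs1* and *Srebf2*), against 1.54% of all, and CACGTG in 4 of the 14, against 6.86%. A match is a run of letters and not evidence that a factor was bound.

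The opposite direction, lower in knockout liver and higher in knockout eWAT, included genes of fat storage and fat burning. Of 15 PPARγ targets and lipid droplet genes, 6 were opposite in this direction (all genes, 0.596%) and none in the other, 1 was lower in both tissues, and the median effect was -0.39 in liver and 0.30 in eWAT. The 6 were *Pparg* itself, *Cfd* (adipsin, a complement protease secreted by adipocytes), *Plin4* and *Cidec* (lipid droplet coat proteins), *Mogat1* (a triglyceride synthesis enzyme) and *Fitm2* (a droplet assembly protein). Beside them, the 8 adipocyte markers averaged 3.16 to 3.31 in wild-type and 3.01 to 3.13 in knockout livers, and 8.17 to 8.61 and 8.89 to 9.25 in eWAT. *Cfd* is also among these 8 markers, so their mean is not independent of the 6 genes. The part of the markers in the result was not tested. Whether less transcript per cell or fewer cells of a type carried it cannot be told apart in bulk tissue, here and in all results that follow.

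*Pparg* read 5.49, 6.0, 5.92 and 6.38 in wild-type livers and 4.76, 5.48, 5.10 and 4.78 in knockout livers. In eWAT it read 8.32, 8.20, 8.18 and 8.11 and 9.04, 8.41, 8.75 and 9.07. Both pairs of groups were separate, narrowly so in liver, where wild-type mouse 1 and knockout mouse 2 were nearly equal, and the effects of -0.92 (SE 0.19) and 0.61 (SE 0.14) differed by -1.53 (SE 0.26, adjusted p = 0.0037). *Plin4* read 5.78, 6.12, 6.28 and 5.50 in wild-type and 3.90, 5.01, 4.24 and 4.34 in knockout livers. In eWAT *Plin4* read 9.90, 9.46, 9.87 and 9.36 and 10.88, 10.13, 10.72 and 10.79. It was 2.92-fold lower in knockout liver (adjusted p = 0.0144) and 1.98-fold higher in knockout eWAT (adjusted p = 0.012), with separate groups in both and a difference of -2.53 (SE 0.32, adjusted p = 0.00075).

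*Cfd* read 4.29, 4.71, 4.66 and 4.96 in wild-type and 3.55, 4.05, 3.36 and 3.19 in knockout livers, and 9.13, 7.29, 8.64 and 8.46 against 10.87, 10.28, 10.48 and 11.18 in eWAT. It had the largest difference of the list, -3.44 (SE 0.43, adjusted p = 0.00075), made of a 2.17-fold fall in liver and a 5.0-fold rise in eWAT. *Cidec* read 5.44, 7.16, 6.54 and 7.06 in wild-type and 4.11, 5.38, 3.89 and 4.48 in knockout livers. Its eWAT values, 10.71, 10.70, 10.78 and 10.79 against 11.15, 11.04, 10.85 and 11.13, moved little (0.30, SE 0.08, adjusted p = 0.0421) though without overlap, so that its difference of -2.38 (SE 0.45, adjusted p = 0.00596) came mostly from liver. *Mogat1* and *Fitm2* were the reverse, with effects of -0.22 and -0.29 in liver, neither past the adjusted threshold there, and 1.07 and 0.73 in eWAT. The *Mogat1* means lay below the liver median (3.02) in both genotypes and below the eWAT median (3.15) in wild type. At such levels an array has little signal over background, so its fall in liver is uncertain.

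*Cd36*, a fatty acid transporter and PPARγ target, fell 3.34-fold in liver (effect -1.74, SE 0.25, adjusted p = 0.0144) and was level in eWAT (0.01, SE 0.07, adjusted p = 0.923), with a difference of -1.75 (SE 0.29, adjusted p = 0.0034). *Plin2*, the droplet coat protein of many cell types, was instead lower in both tissues (-0.39 in liver and -1.06 in eWAT, adjusted p of the average effect 0.00228). *Hilpda*, a lipase inhibitor, was near 0 in liver and -1.0 in eWAT, the single member with liver significantly above eWAT.

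**Figure D3:**
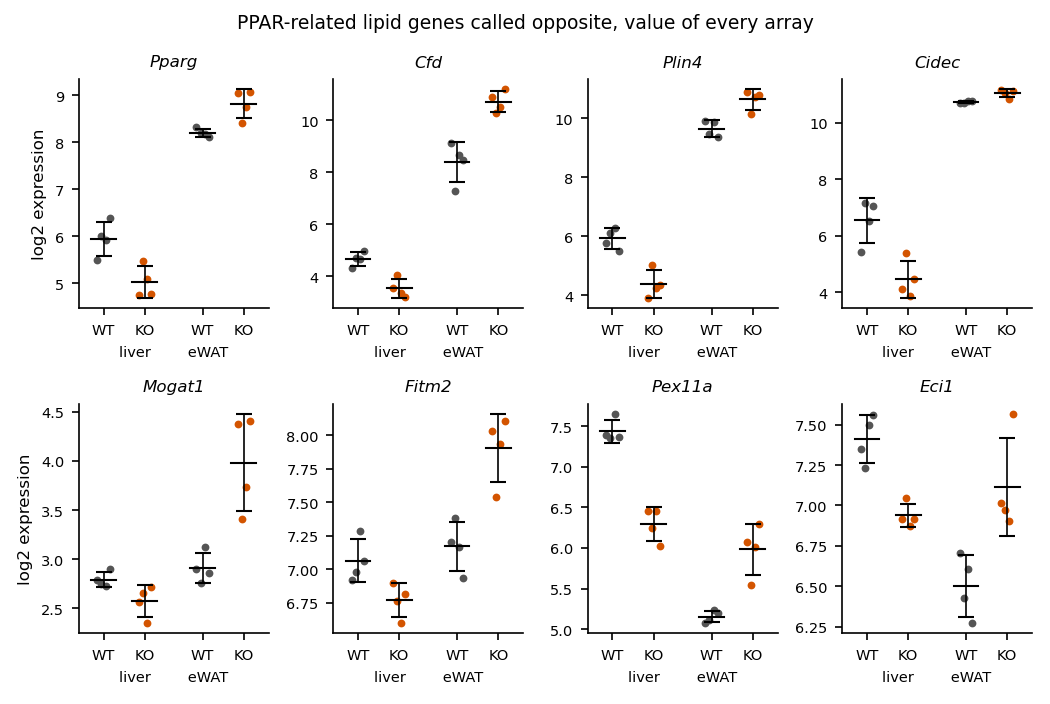
Log2 values on each array of 8 genes that were lower in knockout liver and higher in knockout eWAT, by tissue and genotype, with a point per mouse, a wide bar at the group mean and whiskers of 1 SD (n = 4). Tissues were scaled apart, so genotypes are compared within a tissue. *Cfd*, *Plin4* and *Pex11a* have separate groups in both tissues, whereas *Mogat1* sits near 3 in liver in both genotypes (2.79 and 2.57) and differs mainly in eWAT (2.91 and 3.98).

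The same upstream window of *Plin4* (chr17:56109783-56110032, minus strand), shown as a droplet gene called in each tissue on its own, held a single CCAAT near the start and none of the other motifs.
Plin4: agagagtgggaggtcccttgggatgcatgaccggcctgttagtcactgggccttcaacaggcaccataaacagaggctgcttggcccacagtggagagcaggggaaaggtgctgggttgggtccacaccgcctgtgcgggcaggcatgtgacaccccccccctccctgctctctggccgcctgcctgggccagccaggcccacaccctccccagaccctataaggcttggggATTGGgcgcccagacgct
AGGTCA was found in 4 of the 12 listed promoters of the PPARγ genes (*Pparg*, *Plin2*, *Plin5* and *Cd36*), against 15.8% of all promoters. Among the 6 opposite members it was found in 1, *Pparg* (16.7%).

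Some genes of fatty acid oxidation had the same pattern. Of 18 mitochondrial oxidation genes, 5 were opposite with liver lower (all genes, 0.596%). In both tissues 2 were lower (all genes, 3.19%) and 1 was higher (all genes, 1.25%), and the medians were -0.22 in liver and 0.25 in eWAT. With quantile normalization 3 of the 18 were opposite. The 5 were *Eci1*, *Cpt2*, *Acadl*, *Acadvl* and *Hadh*, enzymes of import and chain shortening. *Eci1*, which isomerises double bonds of unsaturated fatty acids, had the largest difference of the 5 (-0.47 in liver, 0.61 in eWAT, difference -1.08, SE 0.18, adjusted p = 0.0037). *Cpt1a*, the gatekeeper of import, did not follow, with -0.10 in liver and -1.22 in eWAT. Of 22 PPARα targets and peroxisomal genes, 2 were opposite with liver lower (all genes, 0.596%) and 1 was lower in both (all genes, 3.19%). The medians were -0.30 and 0.16, and 13 of the 22 had a negative liver effect with a positive eWAT effect (all genes, 5384 of 24646). The 2 became 4 without the eWAT array of knockout mouse 2 and 3 with quantile normalization.

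*Pex11a*, which drives peroxisome division, read 7.39, 7.35, 7.65 and 7.36 in wild-type and 6.45, 6.24, 6.46 and 6.03 in knockout livers. Its eWAT values were 5.08, 5.11, 5.23 and 5.20 in wild-type and 6.08, 5.55, 6.02 and 6.30 in knockout mice. It fell 2.21-fold in liver (adjusted p = 0.00173) and rose 1.77-fold in eWAT (adjusted p = 0.0103), with the smallest adjusted p of a difference among the genes named here (-1.97, SE 0.19, adjusted p = 0.000183). The other opposite member was *Crat*, a carnitine acetyltransferase (-0.27 and 0.36). *Ehhadh*, *Ucp3*, *Ppara* and *Acaa1a* differed with higher eWAT (0.95, 1.14, 0.49 and 0.68) and liver effects between -0.33 and 0.00, none of them past the threshold. *Cyp4a14*, an omega-hydroxylase, fell in liver (-1.43) and was level in eWAT (0.10), and *Acot1*, a thioesterase, was lower in both (-0.88 and -0.61).

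Other genes named for this direction came from acyl-CoA, phospholipid and sugar metabolism. *Acss3*, a mitochondrial propionyl-CoA synthetase, read 5.76, 5.65, 6.24 and 5.95 in wild-type and 4.66, 4.84, 4.67 and 4.42 in knockout livers and 6.47, 5.89, 6.35 and 5.62 against 7.90, 7.08, 7.39 and 8.21 in eWAT. It was thus 2.39-fold lower in liver and 2.95-fold higher in eWAT (difference -2.82, SE 0.31, adjusted p = 0.000367). *Aox1*, an aldehyde oxidase (-0.57 and 1.02), *Pfkfb3*, an activator of glycolysis (-0.82 and 0.82), *Pcx*, pyruvate carboxylase (-0.26 and 1.27), *Chpt1*, a phosphatidylcholine synthesis enzyme (-0.51 and 0.76), *Pla2g12a*, a secreted phospholipase (-0.52 and 0.62), and *Sowahc* (-0.49 and 0.94) all passed the test of the difference, with adjusted p of 0.00075 to 0.0052. *Cry1* (-0.48 and 0.55) and *Rora* (-0.21 and 0.20), of the circadian clock, and *Bmp6*, the inducer of hepcidin (-0.30 and 0.58), were opposite the same way.

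Of the 6 endothelial markers 5 had a negative liver effect with a positive eWAT effect (all genes, 5384 of 24646), and 1 was negative in both (all genes, 6180). Their mean was 4.29 to 4.47 in wild-type and 3.49 to 4.04 in knockout livers, and 7.33 to 7.47 in wild-type and 7.51 to 7.69 in knockout eWAT. The effects differed for 5 of the 6, each with liver below eWAT (all genes, 2.98%), and *Kdr*, the VEGF receptor (-0.86 and 0.51), and *Emcn* (-0.27 and 0.42) were called opposite (all genes, 0.596%). By the adjusted threshold 3 of the 6 fell in liver (all genes, 0.499%) and 1 rose in eWAT (all genes, 4.57%). The opposite calls numbered 4 without the eWAT array of knockout mouse 2 and 5 with quantile normalization. *Cdh5*, vascular cadherin, fell in liver (-1.08, adjusted p = 0.0458) with 0.16 in eWAT (adjusted p = 0.231). The part these markers have in the opposite genes above was not tested.

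Among genes higher in knockout liver and lower in knockout eWAT outside the cholesterol list, several were macrophage or lysosome genes. *Atp6v0d2*, a proton pump subunit of lipid-laden macrophages and osteoclasts, read 2.43, 2.33, 2.87 and 2.79 in wild-type and 4.48, 4.56, 3.19 and 3.54 in knockout livers. In eWAT it read 10.05, 10.11, 10.21 and 10.10 and 5.03, 9.42, 7.13 and 5.16. It lay near the liver table's median of 3.02 in that tissue and among the high values in wild-type eWAT, and knockout mouse 2 was close to wild type in eWAT. The difference, 4.77 (SE 0.93, adjusted p = 0.00699), was the largest among the opposite genes named. *Ccl9*, a macrophage chemokine (0.49 and -1.51), *Ctsl*, cathepsin L (0.37 and -1.07), *Spp1*, osteopontin (0.60 and -2.38), *Fabp5*, a fatty acid binding protein (0.94 and -1.18), and *Trem2*, the lipid receptor (0.32 and -3.12), were opposite too. None of these liver rises, that of *Atp6v0d2* included, passed the adjusted threshold in liver on its own. Beside these falls in eWAT stands the mean of the 8 macrophage markers there, 8.54 to 8.71 in wild-type and 6.21 to 8.21 in knockout mice. In liver their mean was 4.75 to 5.29 in wild-type and 4.00 to 4.92 in knockout mice, with none of the 8 past the adjusted threshold. The part of macrophage number in these results was not tested.

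The other genes named for this direction had mixed roles. *Got1*, cytosolic aspartate transaminase (1.04 and -1.68, adjusted p of the difference 0.00256), *Camk1d*, a calmodulin-dependent kinase (0.82 and -1.02, 0.00103), *Fam134b*, now *Retreg1*, a receptor for reticulum autophagy (0.58 and -1.12, 0.000669), *Acsl3*, which activates fatty acids (0.51 and -0.50, 0.0021), and *F7*, coagulation factor VII (0.42 and -2.52, 0.0157), were separate in both tissues too. *Elovl6*, which elongates palmitate, was the 1 opposite gene of the lipogenesis list (0.38 and -1.05). *Ccnd1*, cyclin D1 (0.35 and -0.93), *Npas2* (0.26 and -1.08) and the liver P450 *Cyp2c70* (0.96 and -0.97) were listed genes of this kind, with *Bcl2a1a*, *Ccl22* and *Il18*.

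Heat shock chaperones, the proteins that hold and refold others under stress, fell in both tissues. Of 22 members 14 were lower in both knockout tissues (all genes, 3.19%) and none was higher in both, with medians of -0.39 in liver and -0.38 in eWAT. *Hspa1b*, an inducible HSP70, read 8.17, 7.24, 8.15 and 8.62 in wild-type and 4.42, 4.80, 5.02 and 3.64 in knockout livers. Its eWAT values were 5.66, 6.31, 6.32 and 6.61 and 4.0, 4.35, 5.53 and 3.94. Wild-type and knockout mice were separate in both tissues. It fell 11.9-fold in liver (effect -3.58, SE 0.32, adjusted p = 0.00167) and 3.41-fold in eWAT (-1.77, SE 0.34, adjusted p = 0.0126), and the difference of -1.81 put the larger fall in liver (SE 0.51, adjusted p = 0.0374).

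The near-identical copy *Hspa1a* read lower in both (-0.66 and -0.71), and probes may not separate the 2 copies. *Hsph1*, an HSP70 exchange factor, was lower in both (-1.69 and -1.24, difference -0.45, SE 0.43, adjusted p = 0.619), as were *Stip1* (-0.68 and -0.56), *Hspa4l* (-0.63 and -0.66) and *Hspa8*, the constitutive HSP70 (-0.35 and -0.37). *Dnajb1* (-1.0 and -0.46), *Hsp90aa1* (-0.85 and -0.46), *Bag3* (-0.84 and -0.57) and *Hsf1*, the master regulator of the response (-0.33 and -0.35), were lower in both. *Chordc1* fell more in liver (-1.09 and -0.33, adjusted p of the difference 0.0473). *Hspb8*, a small chaperone, was opposite (-0.37 and 0.45), and the mitochondrial *Hspd1* was higher in eWAT (0.40) with -0.09 in liver. With quantile normalization 9 members were lower in both, and 13 without the eWAT array of knockout mouse 2.

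The upstream window of *Hspa1b* (chr17:34959239-34959488, minus strand) is shown because its fall was the largest of the same-way falls named, and it held 1 match to the heat shock element core GAANNTTC and 1 CCAAT box.
Hspa1b: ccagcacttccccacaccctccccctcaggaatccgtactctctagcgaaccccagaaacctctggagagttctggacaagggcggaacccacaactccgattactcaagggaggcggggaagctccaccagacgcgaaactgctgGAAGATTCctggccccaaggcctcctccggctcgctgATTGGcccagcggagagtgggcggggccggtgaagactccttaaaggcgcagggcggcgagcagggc
GAANNTTC was found in 6 of the 17 listed promoters of the chaperone list, against 7.73% of all promoters.

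Most macrophage markers were lower in both tissues. Of the 8 macrophage markers 6 were called lower in both (all genes, 3.19%), with medians of -0.74 in liver and -1.84 in eWAT. The exceptions were *Itgam*, at 2.55 and 2.58 in the livers and -2.49 in eWAT, and *Mertk*. By the adjusted threshold in each tissue, none of the 8 fell in liver and 7 fell in eWAT (all genes, 10.7%). The effects differed for 1 of the 8, and for 5 without the eWAT array of knockout mouse 2 (all genes, 3684 of 24646). *Cd68* had effects of -1.05 and -2.26, *Emr1* (*Adgre1*, the macrophage antigen used to stain these cells) -0.66 and -2.34 and *Mrc1*, the mannose receptor, -0.97 and -1.33. Knockout mouse 2 lay nearest to wild type, with *Cd68* at 5.40 in its liver (other knockout livers 3.54 to 3.97) and 10.36 in its eWAT (others 7.32 to 8.55). *Vsig4*, a complement receptor of resident macrophages, read 6.17, 5.42, 6.34 and 5.48 in wild-type and 3.31, 5.25, 3.97 and 3.92 in knockout livers. It read 4.23, 3.88, 4.54 and 3.49 and 2.32, 3.04, 1.96 and 2.13 in eWAT, with effects of -1.74 and -1.67 (difference -0.07, SE 0.49). *Clec4f*, the Kupffer cell lectin, had a liver effect of -0.87 and was low in eWAT (2.49 to 3.44, effect 0.25), and *Cd5l* was lower in both (-1.18 and -0.41). None of the 5 Kupffer cell markers passed the adjusted threshold in liver.

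*Hmox1*, heme oxygenase, read 6.37, 5.86, 7.12 and 5.51 in wild-type and 4.27, 5.28, 4.21 and 4.63 in knockout livers. Its eWAT values were 7.70, 8.51, 7.70 and 8.52 and 5.52, 7.05, 5.47 and 5.63. All knockout values were below all wild-type values in both tissues, with knockout mouse 2 the highest of the knockouts in each (effects -1.62 and -2.19, average -1.90, SE 0.27, adjusted p = 0.000678). *Fcer1g*, an Fc receptor chain (-1.06 and -2.06), *Cd53* (-1.04 and -2.42), *Plxnc1* (-1.03 and -1.22) and *Folr2* (-0.97 and -2.47), genes of myeloid cells, were separate in both tissues as well. For none of these did the difference between tissues pass the threshold (adjusted p 0.135 to 0.831). In the heme and iron list 5 of 19 were lower in both (all genes, 3.19%), among them the iron exporter *Slc40a1* (-0.50 and -0.96) and *Blvrb* (-0.52 and -1.06).

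Matrix genes were split. Of 28 collagens and matrix genes 8 were lower in both tissues (all genes, 3.19%). For 10 the effects differed with liver above eWAT (all genes, 5.55%), and the list medians were -0.18 and -0.95. *Tgfb1* read 4.43, 4.36, 4.66 and 4.53 in wild-type and 2.87, 4.05, 3.65 and 3.49 in knockout livers and 8.65, 8.57, 8.69 and 8.61 against 7.12, 8.12, 6.96 and 6.80 in eWAT, separate in both (effects -0.98 and -1.38, average adjusted p = 0.000759). *Tgfbi*, its induced matrix protein (-1.30 and -1.24), *Bgn* (-0.95 and -1.28), *Lum* (-0.83 and -2.56), *Postn* (-0.86 and -0.93), *Sparc* (-0.61 and -0.31) and *Ecm1* (-1.39 and -0.90) were lower in both. *Dcn*, a collagen-binding proteoglycan, was lower in both and more so in liver (-2.06 and -0.58, adjusted p of the difference 0.0197). The fibrillar collagens *Col1a1* (-0.18 and -1.35) and *Col1a2* (-0.05 and -1.17), with *Timp1* (0.05 and -2.20), *Fn1*, *Lox*, *Fbn1* and *Mmp2*, moved in eWAT and not detectably in liver.

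**Figure D4:**
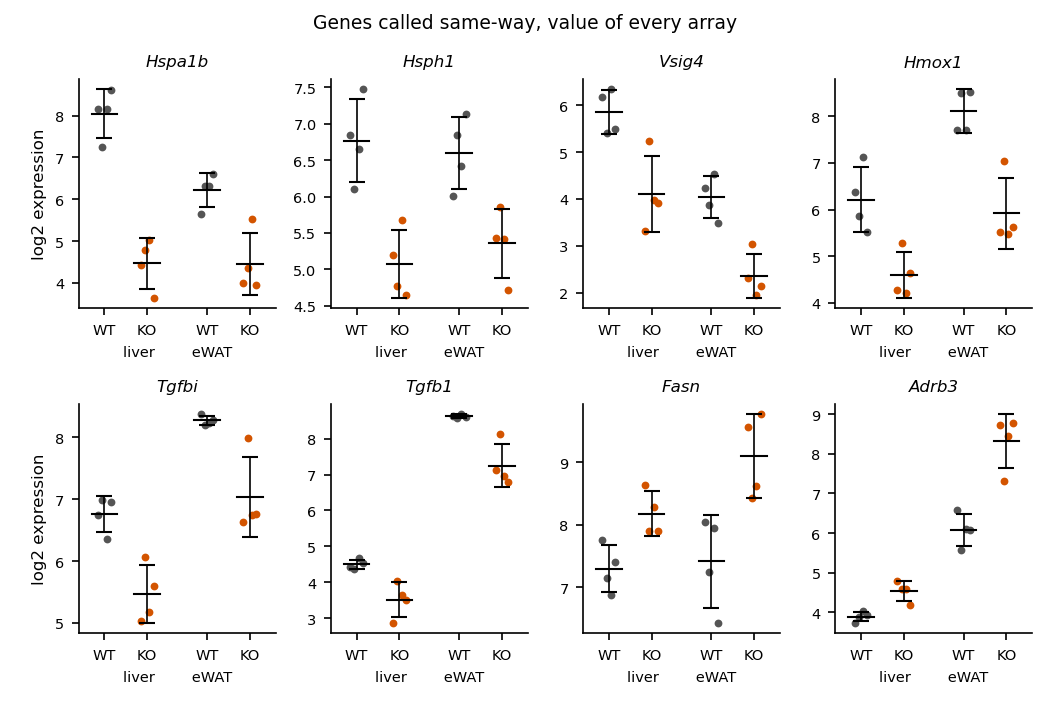
Log2 values on each array of 8 genes that moved the same way in both tissues, by tissue and genotype, with a point per mouse, a wide bar at the group mean and whiskers of 1 SD (n = 4). Tissues were scaled apart, so genotypes are compared within a tissue. *Hspa1b*, *Hsph1*, *Vsig4*, *Hmox1*, *Tgfbi* and *Tgfb1* are lower and *Fasn* and *Adrb3* higher in knockout mice of both tissues, and the highest *Hmox1*, *Tgfbi* and *Tgfb1* values among knockout eWAT belong to mouse 2.

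Same-way rises included the enzymes that make fatty acids. Of 17 lipogenesis genes 6 were higher in both knockout tissues (all genes, 1.25%) and none lower in both, with medians of 0.37 and 0.53. By the adjusted threshold in each tissue, none of the 17 rose in liver (all genes, 0.162%) and 1 fell there. In eWAT 7 rose (all genes, 4.57%) and 1 fell. The 6 called higher in both were *Srebf1*, the regulator of the pathway (0.52 and 0.55), *Acly* (0.51 and 0.36), *Acss2* (0.48 and 0.61), *Acaca* (0.38 and 1.54), *Fasn* and *Scd1* (2.08 and 0.45). *Fasn*, fatty acid synthase, read 7.76, 7.15, 6.88 and 7.41 in wild-type and 8.64, 7.89, 8.28 and 7.90 in knockout livers. In eWAT it read 8.04, 7.25, 7.94 and 6.44 and 9.56, 8.42, 8.62 and 9.76. Knockout values were above all wild-type values in both tissues (effects 0.88 and 1.67, average 1.28, SE 0.24, adjusted p = 0.00282). The average effect on *Scd1*, the desaturase, was 1.26 (SE 0.31, adjusted p = 0.0104), and *Acacb* (0.37 and 1.86) and *Pnpla3* (-0.13 and 1.40) differed with the larger rise in eWAT. In all, the effects of 3 lipogenesis genes differed (all genes, 8.53%). Without the eWAT array of knockout mouse 2, 6 did (all genes, 3684 of 24646), and with quantile normalization 5 did (all genes, 2135).

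*Adrb3*, the adrenergic receptor that triggers lipolysis in adipocytes, read 3.74, 3.88, 4.02 and 3.93 in wild-type and 4.79, 4.59, 4.60 and 4.19 in knockout livers. Its eWAT values were 6.58, 5.58, 6.10 and 6.07 and 8.72, 7.32, 8.45 and 8.79. The rise held in both tissues and was larger in eWAT (0.65 and 2.24, difference -1.59, SE 0.37, adjusted p = 0.0151). *Fbxo21*, a ubiquitin ligase subunit, was the other named rise with a significant difference (0.42 and 1.83, adjusted p = 0.00993). *Btg3*, an antiproliferative factor, rose in both (0.71 and 0.71), as did *Srsf5*, a splicing factor (0.45 and 0.54), and *Sult1a1*, a sulfotransferase (0.53 and 0.78), with no difference past the threshold. *Aldh1l1*, of folate metabolism (0.53 and 1.58), *Kiss1r*, the kisspeptin receptor (0.44 and 1.20), *Dhtkd1*, of lysine breakdown (0.41 and 0.83), and *Nr1d1*, the clock repressor REV-ERBα (0.48 and 0.74), were the remaining named rises, all with separate groups in both tissues.

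*C130050O18Rik*, the neighbour of *Gpr146* in the RefSeq gene order, rose strongly in both tissues. It read 3.77, 3.56, 3.94 and 3.54 in wild-type and 7.51, 7.32, 6.95 and 7.24 in knockout livers. The eWAT values were 6.45, 3.47, 3.69 and 4.12 and 7.89, 7.0, 7.48 and 7.61. Knockout values were above wild-type values throughout, although wild-type mouse 1 stood high in eWAT, and the effects of 3.55 and 3.06 did not differ past the threshold (adjusted p = 0.726). Small nucleolar and spliceosomal RNAs, which guide RNA modification and splicing, also rose together. Of 114 measured, 55 were higher in both tissues (all genes, 1.25%) and none lower in both, with medians of 0.29 and 0.71, and for 24 the effects differed, each with eWAT above liver (all genes, 2.98%). With quantile normalization 62 were higher in both.

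The remaining differences were in size, mostly a change in eWAT with little or none in liver. Of 18 lipid-associated macrophage genes 11 differed with liver above eWAT (all genes, 5.55%) and 15 fell in eWAT by the adjusted threshold there (all genes, 10.7%), with medians of -0.001 in liver and -2.06 in eWAT. *Dhrs9*, *Tm4sf19* and *Il7r* were at 1.30 to 2.31 in every liver and fell by 3.72, 3.44 and 3.47 in eWAT, where knockout mouse 2 was the highest of the knockout mice (*Il7r* 7.82, against 3.19 to 5.06 in the others). The call of *Il7r* (adjusted p of the difference 0.0307) was lost when any of 10 arrays was left out. *Olfr111*, named as an olfactory receptor, was at 0.90 to 1.31 in liver and read 5.99, 6.55, 6.64 and 6.08 in wild-type and 1.79, 4.48, 1.87 and 1.44 in knockout eWAT (effect -3.92, adjusted p = 0.00833). All but 1 of those knockout values lay below the median of the eWAT table (3.15), where an array has little signal over background, so no fold is given. *Gpnmb* (0.10 and -2.64), *Itgax* (0.05 and -2.69) and *Ctsk* (-0.06 and -2.98) were alike. Of 28 cell cycle genes 21 differed with liver above eWAT (all genes, 5.55%), and none differed the other way. *Mki67*, the proliferation antigen, was at 2.09 to 2.72 in liver and read 6.67, 6.82, 6.16 and 6.32 in wild-type and 3.66, 5.79, 5.31 and 3.50 in knockout eWAT. In all, 8 of the 28 lay above the median of both tables, so for most there was little signal in liver.

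All 33 lysosomal genes had a mean above the median of both tables, *Atp6v0d2* in liver only through its knockout values. By the adjusted threshold none of the 33 fell in liver (all genes, 0.499%) and 26 fell in eWAT (all genes, 10.7%). Of the 33, 16 differed with liver above eWAT (all genes, 5.55%) and 12 were lower in both (all genes, 3.19%), with medians of -0.13 and -0.88. Without the eWAT array of knockout mouse 2, 27 differed with liver above eWAT (all genes, 2393 of 24646). *Lipa*, the acid lipase (-0.22 and -1.87), and *Atp6v1a*, a proton pump subunit (-0.20 and -1.31), fell in both and more in eWAT, whereas *Ctsb* (-0.22 and -0.70), *Psap* (-0.26 and -0.67) and *Ctss* (-1.52 and -1.70) were lower in both with no difference past the threshold. Of 27 chemokines and cytokines 10 differed with liver above eWAT (all genes, 5.55%), among them *Ccl3* (-0.17 and -2.12), *Il1rn* (-0.24 and -1.86) and *Tnf* (0.02 and -1.14). Of 12 MHC class II genes 3 were lower in both, *Cd74* (-1.12 and -0.43), *Ctss* and *Ifi30* (-0.61 and -2.08), and none differed. Without the eWAT array of knockout mouse 2, 4 of the 12 differed with liver above eWAT (all genes, 2393 of 24646). In eWAT 8 fell without it, against 2 with it.

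Branched-chain amino acid breakdown rose in eWAT with little change in liver. Of 17 genes 12 differed with liver below eWAT (all genes, 2.98%) and 3 were higher in both (all genes, 1.25%), or 6 with quantile normalization. None fell by the adjusted threshold, and the medians were 0.09 and 0.94. *Bckdha* (0.04 and 1.19) and *Bckdhb* (0.13 and 1.10), subunits of the rate-limiting dehydrogenase, rose in eWAT, and *Bcat2*, the first transaminase, rose in both (0.35 and 1.01, adjusted p of the difference 0.048). *Cyp2e1*, an ethanol-oxidising P450, read 11.52, 11.56, 11.57 and 11.62 in wild-type and 11.51, 11.36, 11.49 and 11.54 in knockout livers, near the top of the scale, and 8.27, 5.42, 8.75 and 6.27 against 11.07, 10.06, 10.73 and 11.41 in eWAT. Its eWAT rise was 12.5-fold and the difference -3.73 (SE 0.72, adjusted p = 0.00671). *Fam13a*, a gene of adipocyte lipid turnover, was like it (-0.09 and 2.90), as was *Acsm3*, an acyl-CoA synthetase (-0.25 and 2.81). *Orm3*, an acute phase protein, had -0.69 in liver (SE 0.42) and 2.25 in eWAT. *Gpam*, the first enzyme of triglyceride synthesis (-0.04 and 1.72), *Dgat1* (-0.00 and 0.90) and *Lipe*, hormone-sensitive lipase (0.05 and 0.63), also moved in eWAT. So did the adipokines *Rbp4* (-0.02 and 1.28), *Retn* (-0.07 and 1.32), *Adipoq* (-0.14 and 0.51) and, downwards, *Lep* (-0.12 and -0.98).

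Differences made by liver were fewer. *Cyp7a1*, the rate-limiting enzyme of bile acid synthesis, read 8.69, 7.32, 8.69 and 8.83 in wild-type and 10.05, 10.46, 10.05 and 10.03 in knockout livers. In eWAT it was at 2.00 to 2.29 in every mouse, below the median of that table (3.15), so its difference of 1.77 (SE 0.33, adjusted p = 0.0057) is that of the liver. *Cyp3a25* (1.93 and -0.00) was similar, and *Lcn13*, now *Obp2a*, a secreted lipocalin, fell in liver from a mean of 5.74 to 3.59 while remaining at 1.44 to 1.92 in eWAT, where its small rise (0.32) made it opposite by rule. *Nampt*, of NAD synthesis (-0.58 and 0.11), and *Mgll*, monoglyceride lipase (-0.50 and 0.12), fell in liver (adjusted p = 0.0371 for each) and differed between tissues, as did the stress factor *Ddit3* (-0.54 and 0.11).

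The other lists are read against the share of all genes that differed (8.53%: 5.55% with liver above eWAT and 2.98% below) or were lower (3.19%) or higher (1.25%) in both. Of these lists the adipokines and adipocyte markers lay farthest above it. Of 12 adipokines 9 differed, as did 6 of 8 adipocyte markers, and *Adipoq*, *Lep*, *Retn* and *Cfd* are in both of these lists. Of 32 cell death genes 11 differed and 5 were lower in both. Without the eWAT array of knockout mouse 2 the effects differed for 3684 of all 24646 genes, 2393 with liver above eWAT and 1291 below. They differed for 17 of the cell death genes without that array. Of 28 glucose and glycogen genes 6 differed with liver below eWAT and 2 above, and 2 were lower in both. Of 19 clock genes 5 differed, 3 of them opposite, and 12 differed without that array. Of 22 integrated stress response genes 5 differed (8 without that array) and 2 were lower in both, *Mthfd2* (-0.57 and -0.66) and *Slc3a2* (-0.49 and -0.48). Of 26 immediate-early and ERK feedback genes 2 differed (4 without that array) and 3 were lower in both, *Spred1*, *Spred2* and *Myc*, against 1 with quantile normalization. Of 22 acute phase genes 2 differed and 3 were lower in both, *Saa3*, *Lcn2* and *Lbp*. Of 35 cytochrome P450 genes 6 differed, and of 21 bile acid genes 3. Counts for genes of mitochondrial respiration moved with the processing. Of 35 respiratory complex I genes 3 differed with liver below eWAT, among them *Ndufb10* (0.05 and 0.57), and 9 did without the eWAT array of knockout mouse 2, as with quantile normalization. Of 39 genes of complexes II to V 3 differed with liver below eWAT and 2 were higher in both. Of 17 TCA cycle genes 1 differed and 1 was higher in both, and 3 differed without that array and 5 with quantile normalization. Of 28 interferon-stimulated genes 1 differed and 1 was lower in both, and 5 differed without that array. Among the marker lists not given above, 2 of 8 hepatocyte markers differed. None of the B and T cell, epididymis, muscle and pancreas markers was called (2 pancreas markers differed without that array). For 2 of 6 mesothelium markers the knockout effect in liver lay above that in eWAT (1 with quantile normalization). For 1 of 3 red cell genes, *Hbb-b1*, the liver effect lay below the eWAT effect. Knockout mouse 3 had B and T cell markers at 4.32 in eWAT, against 3.03 to 3.15 in the other knockout mice.

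**Figure D5:**
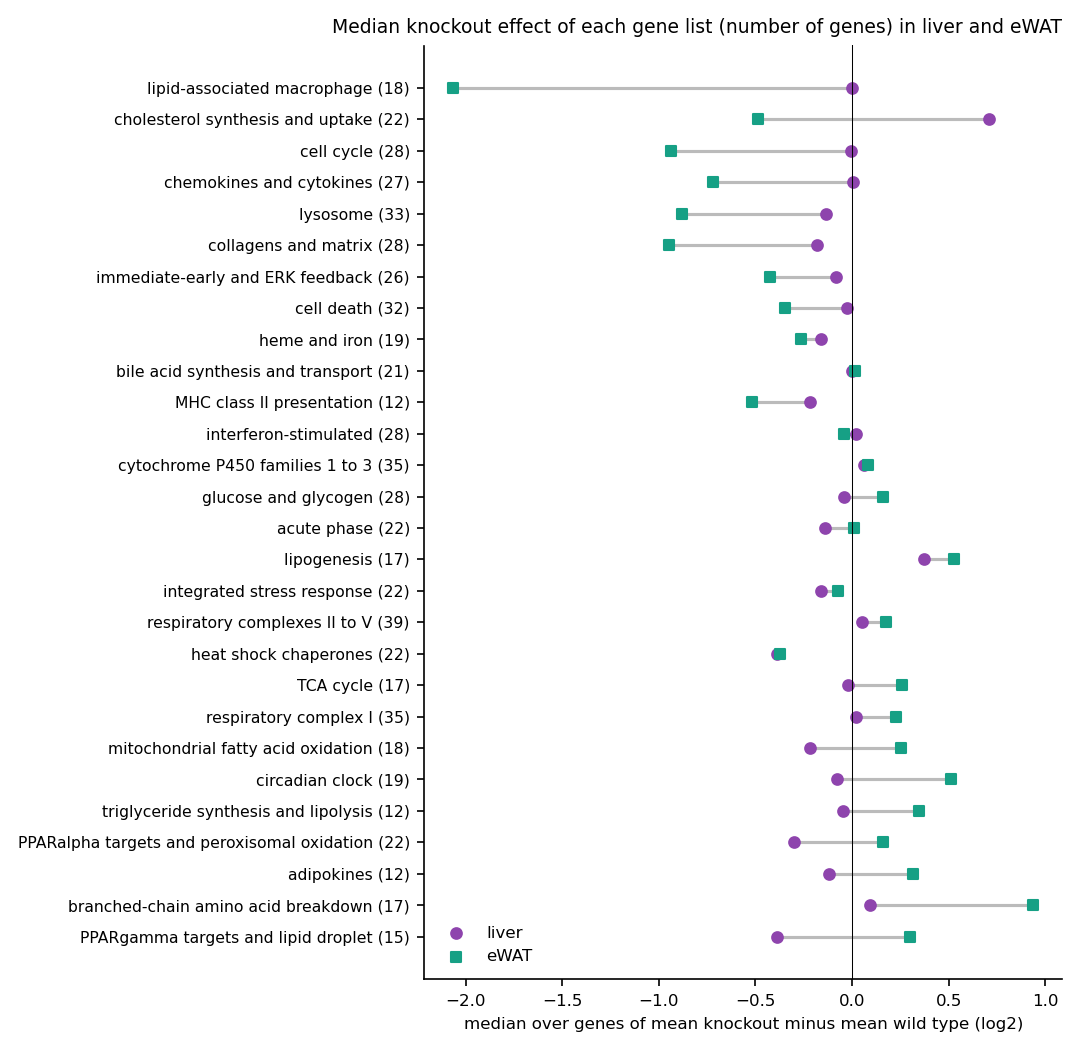
Median knockout effect (log2, x axis) of each gene list in liver (circles) and eWAT (squares), with the number of genes in parentheses and lists ordered by the median difference. Cholesterol genes lie to the right of 0 in liver (0.71) and to the left in eWAT (-0.48), PPARγ genes the other way (-0.39 and 0.30), heat shock chaperones lie to the left in both (-0.39 and -0.38), and lipid-associated macrophage genes have medians of -2.06 in eWAT and -0.001 in liver.

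In these comparisons the liver and eWAT arrays came from separately normalized tables, so no test set a level in liver against a level in eWAT. The p-values measure the spread between these mice, with 4 per group.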

How the data were processed

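Total RNA (100 ng per array) of liver and eWAT was hybridised to Affymetrix Mouse Gene 2.1 ST arrays. The authors deposited log2 expression values, 1 table per tissue and already normalized between its arrays by a method not given in the sources used here, with 840 genes averaged over several probe sets. The fat table heads its columns with an abbreviation for visceral fat, which was read as the epididymal depot. After dropping 2 liver entries and 1 eWAT entry with no usable name, 24646 genes remained, of which RefSeq symbols (GRCm38.p6) matched 21227 directly and 2280 as synonyms. Genotype was taken from the genotype label, because the titles of the knockout livers name both genotypes. Arrays of a tissue correlated at 0.986 to 0.993 in liver and 0.96 to 0.995 in eWAT, and the number of arrays (4 per group) limits the precision.

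Each tissue was fitted apart, and the 16 arrays together, with limma 3.58.1 (R 4.3.3), with Benjamini-Hochberg adjustment over the 24646 genes and a threshold of 0.05. The script was tested on simulated data. Members, lists and rules were chosen with earlier results of these data known. Genes named by rule were *Gpr146* and its neighbour, up to 10 same-way and 10 opposite genes per direction with the largest smaller effect and no overlap between genotypes in either tissue, the 5 largest other differences of each sign, and up to 4 (difference) and 2 (average effect) per list. Some genes met by these rules are not reported here. Predicted and small RNA genes were skipped, and any further gene was picked with its values in view. The labels give the same mouse numbers in both tissues, and deviations from group means correlated at -0.063 to 0.15 within a mouse, the own number being the best match for 5 of 8 mice. Alternatives were quantile normalization, equal array medians, a filter on dim genes, array weights, a trended and robust prior, the mouse as a block, each array left out, stricter call rules and the methods' t-test. List counts without the eWAT array of knockout mouse 2 and under both scalings were added after the data were seen.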

Additional observations from a re-analysis of the deposited data

Results flagged for a closer look

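Among 49 genes named by the rules for single genes, each checked in 4 groups, 12 of 196 groups had 1 mouse far from the other 3 by Dixon's test, which chance gives in about 1 of 20 groups. In 6 of them the mouse was knockout mouse 2 in eWAT: *Hmox1* at 7.05 (others 5.47 to 5.63), *Tgfbi* at 8.0 (others 6.63 to 6.76), *Srsf5* at 8.70 (others 9.15 to 9.18), *Fbxo21* at 8.24 (others 8.87 to 8.92), *Acsl3* at 4.18 (others 3.76 to 3.81) and *Olfr111* at 4.48 (others 1.44 to 1.87). These values lay towards wild type. The same mouse stood apart in liver for *Cd53* at 4.20 (others 3.22 to 3.33) and *Fam134b* at 7.14 (others 6.63 to 6.66), the first nearer to wild type and the second farther from it. In wild-type liver, *Pex11a* read 7.65 in mouse 3 (others 7.35 to 7.39), *Pla2g12a* read 4.58 in mouse 1 (others 4.89 to 4.93), *Tm4sf19* read 1.88 in mouse 3 (others 2.27 to 2.28) and *Orm3* read 5.96 in mouse 1 (others 5.15 to 5.29).

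The knockout effects in liver and eWAT differed, by the test of the difference itself, for 2103 genes, including 30 of the 49. Most of the 30 were named because they passed this test, so their passing was fixed in advance. Only *Hspa1b*, *Adrb3* and *Fbxo21* were named by another rule, that for same-way genes. For 12 of the 30 the liver effect lay above the eWAT effect, with differences on the log2 scale of 4.77 (*Atp6v0d2*), 3.83 (*Olfr111*), 3.76 (*Dhrs9*), 3.44 (*Tm4sf19*), 3.44 (*Trem2*), 3.44 (*Il7r*), 2.94 (*F7*), 2.71 (*Got1*), 2.00 (*Ccl9*), 1.84 (*Camk1d*), 1.71 (*Fam134b*) and 1.01 (*Acsl3*). For 18 it lay below, with differences of -3.73 (*Cyp2e1*), -3.44 (*Cfd*), -3.05 (*Acsm3*), -2.99 (*Fam13a*), -2.94 (*Orm3*), -2.82 (*Acss3*), -2.53 (*Plin4*), -2.48 (*Lcn13*), -1.97 (*Pex11a*), -1.81 (*Hspa1b*), -1.64 (*Pfkfb3*), -1.59 (*Aox1*), -1.59 (*Adrb3*), -1.53 (*Pparg*), -1.43 (*Sowahc*), -1.40 (*Fbxo21*), -1.27 (*Chpt1*) and -1.14 (*Pla2g12a*).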

How the results depend on the processing

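The number of genes whose effects differ (2103) was 2135 with quantile normalization, 1960 with equal array medians, 1623 among genes above both table medians, 1990 with a trended and robust prior and 3407 with array weights, and 1374 (without wild-type mouse 2 in eWAT) to 3684 (without knockout mouse 2 in eWAT) with an array left out. With the mouse as a replicate block it was 2158 (random) and 2062 (fixed), and pairing changed no count of calls by over 1.5 times. Same-way genes (1095) ranged from 829 to 1205 and opposite genes (278) from 206 to 340 with an array left out. The stricter rules gave 36 and 16 (adjusted p in each tissue) and 461 and 119 (no overlap in either tissue). The methods' t-test gave 798 and 223 at their unadjusted threshold, and 0 and 0 after Benjamini-Hochberg. Of the 52 genes named by rule, none changed the sign of its difference or average effect, and 51 kept their side of the threshold, under the 2 scalings, array weights, the trended prior, the random block and each array left out. The 47 tested among genes above both table medians and the 30 differences in the fixed block all kept their sign and side. Apart from *Gpr146* and its neighbour, the 52 genes were chosen on these data for passing the threshold without overlap in at least 1 tissue. Their stability is thus in part set by the choice and is no separate support for the calls. The stricter rules and the t-test were counted over all genes only. *Il7r* lost its call with the trended prior (adjusted p = 0.058) and when any of 10 arrays was left out (adjusted p up to 0.061). Levels below the table medians limit what liver can show: 653 of the 2103 genes lay below that of liver.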
